A study of Mus musculus with 4 samples.

Results

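The genes described here encode the subunits and regulators of the proteasome, the protease complex that degrades ubiquitin-tagged proteins. They were taken by symbol, as Psma, Psmb, Psmc, Psmd, Psme, Psmf or Psmg followed by a number, leaving out Psmb8, Psmb9 and pseudogenes. The rule found 47 of the 17008 genes with a read in any library: 8 of the alpha ring, 9 of the beta ring, 9 of the base, 8 of the lid, 5 activators or inhibitors, 7 assembly factors and Psmc3ip. Psmc3ip encodes a meiotic recombination factor, is no part of the proteasome and matches by its name alone.

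The RNA came from macrophages sorted from C57BL/6J mice, and there was 1 library in each of 4 groups. T-ALL spleen and T-ALL bone marrow (BM in figures) were taken on day 21 from mice that had received GFP+ leukaemia cells without irradiation and that develop T cell acute lymphoblastic leukaemia (T-ALL). Normal spleen and normal bone marrow were taken on day 0. The recipients were 6 to 8 weeks old, and survival after the transplant was 35 to 40 days. The labels call the sorted cells of the T-ALL groups leukaemia-associated macrophages. They do not state the driver of the leukaemia, the sort markers, or how many mice of which sex were used or pooled. With 1 library per group there is no replicate error, and no p-value was computed; every interval below covers counting error only.

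In the 26S proteasome a barrel-shaped 20S core is capped by a 19S regulatory particle. The core is a stack of rings: the outer alpha rings gate the entry, and the inner beta rings hold the chymotrypsin-like (Psmb5), caspase-like (Psmb6) and trypsin-like (Psmb7) sites. The base of the 19S particle holds a ring of AAA ATPases that unfolds substrates, and its lid holds the deubiquitinase Psmd14. In immune cells interferon-gamma exchanges the catalytic subunits for Psmb8, Psmb9 and Psmb10 and induces the PA28 activator of Psme1 and Psme2, which shifts the peptides made for MHC class I. The transcription factor NRF1 (gene Nfe2l1) is known to raise the subunit genes together when proteasome activity falls short.

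Libraries held 9160157 unique reads in T-ALL spleen, 8979385 in normal spleen, 9399362 in T-ALL bone marrow and 9809676 in normal bone marrow. The summed level of the 15 macrophage markers with a line was 6428 CPM in T-ALL spleen, 10341 CPM in normal spleen, 9941 CPM in T-ALL marrow and 3787 CPM in normal marrow. Abundant markers weigh most in these sums. Between T-ALL spleen and T-ALL marrow the summed ratio was 0.647, yet 10 of the 15 markers had more CPM in T-ALL spleen and 5 had less. Between normal spleen and normal marrow the summed ratio was 2.73, with 13 markers higher in spleen and 2 lower. Their median log2 fold of CPM plus 1 was 4.17. Genes of neutrophil precursors summed to 184 CPM in T-ALL spleen, 385 CPM in normal spleen, 18246 CPM in T-ALL marrow and 35654 CPM in normal marrow. T cell markers summed to 4067 CPM in T-ALL spleen, 1235 CPM in normal spleen, 911 CPM in T-ALL marrow and 274 CPM in normal marrow. No macrophage, neutrophil precursor or T cell gene of these lists was at 0 in any library. Because these are bulk libraries, fewer cells of a type and less RNA per cell cannot be told apart in any value below.

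All 47 genes had reads in all 4 libraries, and 45 of them reached 10 CPM (reads per 1000000 reads of the library, with totals adjusted by TMM factors) in at least 1 library. Psma8, the testis form of Psma7, and Psmb11, the form of Psmb5 in the thymic cortex, did not reach that level. Together the genes took 0.624% of the reads in T-ALL spleen (exact 95% interval 0.619% to 0.629%), 0.378% in normal spleen (0.374% to 0.382%), 0.433% in T-ALL bone marrow (0.429% to 0.438%) and 0.484% in normal bone marrow (0.480% to 0.489%). The 4 intervals do not overlap. Of the 45 genes, 37 had their highest level in T-ALL spleen, 3 in normal spleen, 1 in T-ALL bone marrow and 4 in normal bone marrow. Normal spleen held the lowest level of 39 of them, T-ALL bone marrow of 2, normal bone marrow of 4 and T-ALL spleen of 0. The 3 genes that peaked in normal spleen were Psmb10, Psme1 and Psme2, all known as genes that interferon-gamma induces. Psme4 peaked in T-ALL bone marrow, and Psmd7, Psmd5, Psmg1 and Psmc3ip peaked in normal bone marrow. By RefSeq, 13 of the 47 genes overlap another gene, among them Psmd1, Psmc5, Psma6, Psmb7, Psme1 and Psme4, and the strand setting of the counts is not given, so their reads may hold some of a neighbour's.

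**Figure D1:**
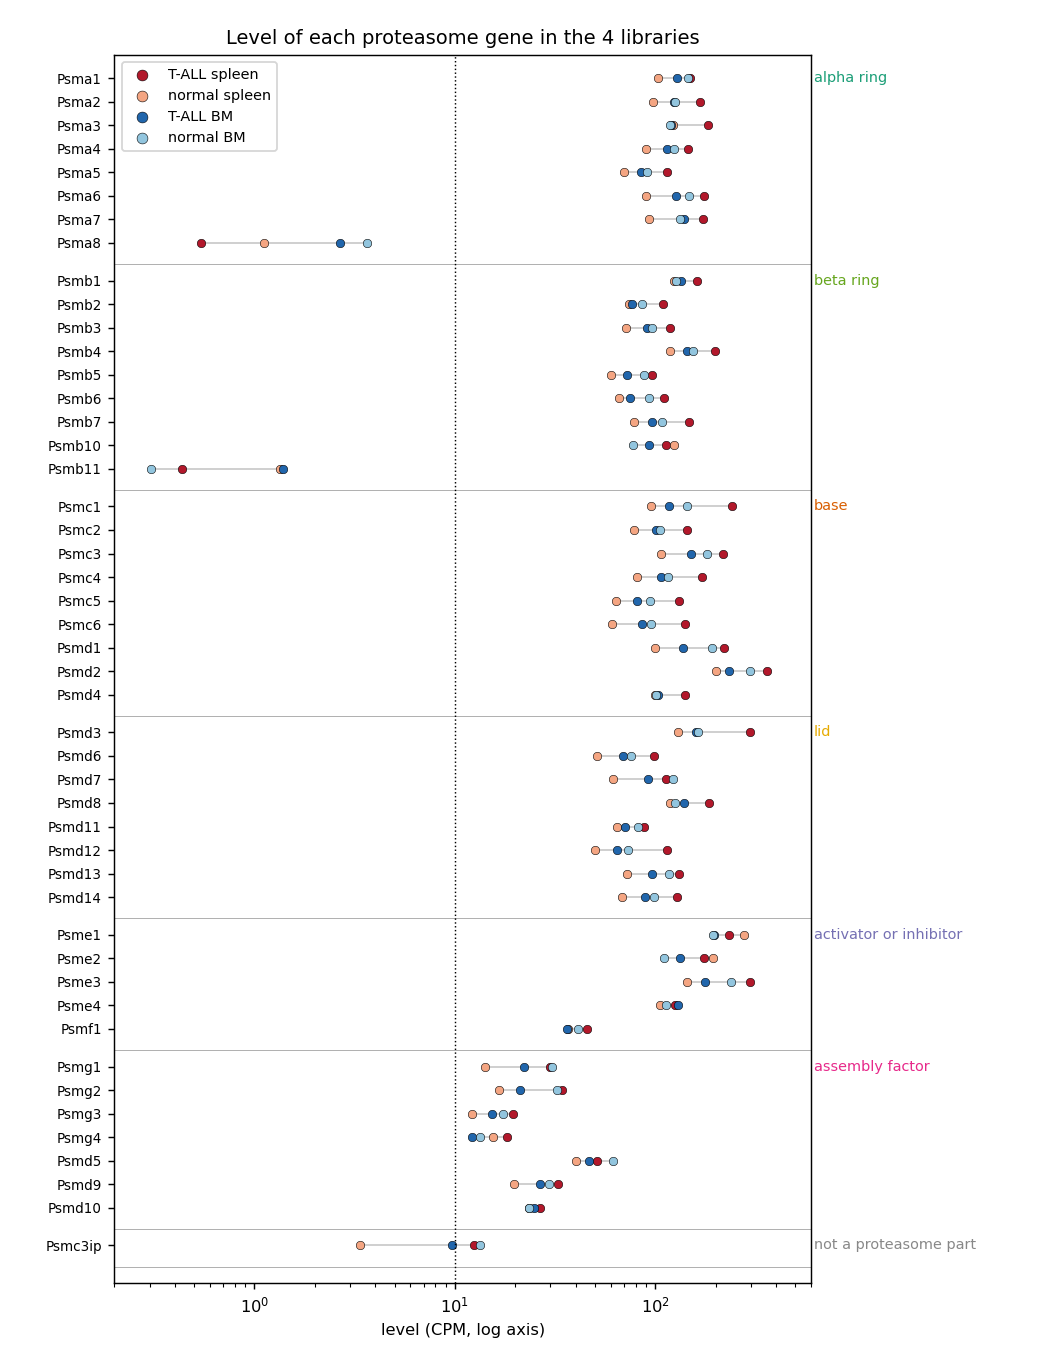
Level of each proteasome gene in CPM (log axis) in the 4 libraries, 1 point per library, with genes grouped by their place in the proteasome. The T-ALL spleen point is the rightmost for 37 of the 45 genes that reach 10 CPM; Psma8 and Psmb11 lie at the left. The dotted line marks 10 CPM.

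The promoters of 4 of these genes are shown because the genes stand for the main patterns below: Psmc1 and Psmc6 (base) and Psme3 (nuclear activator) are high in T-ALL spleen, and Psme1 (PA28) is high in normal spleen. Each sequence is the RefSeq promoter of build GRCm38.p6, from 250 bases before the start to 50 bases after it, on the plus strand, at chr12:100109952-100110251 for Psmc1, chr14:45329574-45329873 for Psmc6, chr11:101315963-101316262 for Psme3 and chr14:55578244-55578543 for Psme1. Capitals mark matches, on either strand, to the letters of an antioxidant response element as bound by NRF1 (TGACNNNGC), a CCAAT box (CCAAT), an ETS site (CCGGAAG), a gamma-interferon activation site (TTCNNNGAA) and an interferon-stimulated response element; no match in these 4 promoters overlaps another.
Psmc1: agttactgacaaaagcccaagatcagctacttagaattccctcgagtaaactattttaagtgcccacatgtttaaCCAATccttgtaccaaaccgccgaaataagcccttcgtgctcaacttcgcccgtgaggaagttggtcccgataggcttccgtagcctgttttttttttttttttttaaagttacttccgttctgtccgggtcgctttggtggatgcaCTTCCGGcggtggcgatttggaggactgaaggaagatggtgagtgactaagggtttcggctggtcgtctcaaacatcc
Psmc6: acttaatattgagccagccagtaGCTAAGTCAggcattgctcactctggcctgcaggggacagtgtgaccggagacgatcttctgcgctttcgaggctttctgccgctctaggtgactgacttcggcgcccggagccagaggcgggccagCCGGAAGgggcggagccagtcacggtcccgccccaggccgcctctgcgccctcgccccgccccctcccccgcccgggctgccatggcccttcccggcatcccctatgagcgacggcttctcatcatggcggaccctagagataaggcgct
Psme3: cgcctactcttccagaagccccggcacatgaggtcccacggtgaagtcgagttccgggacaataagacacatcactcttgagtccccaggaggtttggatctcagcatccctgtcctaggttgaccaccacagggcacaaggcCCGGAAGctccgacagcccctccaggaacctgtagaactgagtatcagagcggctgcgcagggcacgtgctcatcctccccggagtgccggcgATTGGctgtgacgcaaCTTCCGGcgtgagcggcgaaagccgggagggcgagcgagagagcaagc
Psme1: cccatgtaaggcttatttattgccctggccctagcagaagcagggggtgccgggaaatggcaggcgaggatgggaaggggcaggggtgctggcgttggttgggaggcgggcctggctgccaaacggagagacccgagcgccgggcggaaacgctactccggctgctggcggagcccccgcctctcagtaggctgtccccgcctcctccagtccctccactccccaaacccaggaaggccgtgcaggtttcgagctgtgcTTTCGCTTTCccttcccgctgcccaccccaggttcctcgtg

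In the Psmc1 promoter a CCAAT box lies at -175 and an ETS match at -28 from the start. Psmc6 has an antioxidant response element match at -227 and an ETS match at -100. Psme3 has ETS matches at -107 and 2 and a CCAAT box between them at -14. Psme1 has an interferon-stimulated response element match at 9, just past its start. Positions give the leftmost base of a match, with the start base as 0. RefSeq promoters were used for 39 of the 47 genes. Chromosome 18, which holds Psma8 and Psmg2, was left out for the 47 genes but not for the shares over all genes. The promoters used also lacked Psmb1, Psmb2, Psmb7, Psmc3, Psmd3 and Psmd7. Of these, Psmc3 and Psmd3 are among the genes called higher in T-ALL spleen below. Psmb10 counts among the 39 with no match to any motif, and whether the start in the table is the one these cells use was not tested. The ETS letters were in 15 of these 39 (38.5%), against 22.7% of the 7925 genes with a promoter that reached 10 CPM in a spleen library and 9.93% of all 27025 genes with one. The antioxidant response element letters were in 6 of 39 (15.4%), namely Psmb5, Psmb6, Psmc6, Psmd12, Psmd9 and Psme4, against 17.2% and 14.0%. CCAAT was in 14 of 39 (35.9%, against 43.1% and 41.1%), the interferon-stimulated letters in 5 (12.8%, against 4.21% and 3.99%), and the gamma-interferon letters in 2 (5.13%, against 8.32% and 9.55%). The interferon-stimulated letters were in Psmb3, Psmd4, Psmd9, Psme1 and Psmg4, but not in Psme2 or Psmb10. Psmb3, Psmd4, Psmd9 and Psmg4 had T-ALL to normal ratios in spleen of 1.66, 1.41, 1.65 and 1.18. All matches given here are letter matches in a short window, not measured binding.

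The first question of the design is how macrophages of leukaemic spleen differ from those of normal spleen. Calls were made by size: a gene is called where log2(CPM + 1) differs by 1 or more between a pair of libraries and the library with more has at least 10 CPM. By this 2-fold rule 11 of the 45 genes (10 of 44 without Psmc3ip) were higher in T-ALL spleen and 0 were lower. Over all 9774 genes that reached 10 CPM in a spleen library 10.3% were higher and 11.0% were lower. At 1.5-fold, 31 of 45 were higher, against 20.1% of all genes, and 0 were lower, against 23.9%. The median log2 fold was 0.73 for the proteasome genes and -0.08 for all genes, and the summed level was 6191 CPM in T-ALL spleen and 3793 CPM in normal spleen, a ratio of 1.63 (1.61 to 1.65). The counting intervals lay above 1 for 40 of the 45 genes, below 1 for 3 and across 1 for 2.

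The base of the 19S particle had the highest median fold of the 6 classes. Of its 9 genes, 6 rose at least 2-fold in T-ALL spleen, 5 of them ATPases, and its median log2 fold was 1.03. Psmc1, the ATPase Rpt2, had 241 CPM in T-ALL spleen, 95.2 CPM in normal spleen, 118 CPM in T-ALL marrow and 145 CPM in normal marrow. The T-ALL spleen library stood alone at the top, and the ratio between the spleen libraries was 2.53 (2.34 to 2.74), the highest among the 44 genes of the standard proteasome set. Psmc6 (Rpt4) had 140.4 CPM in T-ALL spleen, 60.96 CPM in normal spleen, 85.5 CPM in T-ALL marrow and 94.9 CPM in normal marrow. Its spleen ratio was 2.30 (2.08 to 2.55), again with T-ALL spleen highest and normal spleen lowest. Psmd1, the large scaffold Rpn2, had 221 CPM in T-ALL spleen, 99.8 CPM in normal spleen, 137 CPM in T-ALL marrow and 191 CPM in normal marrow. Its spleen ratio was 2.22 (2.05 to 2.40).

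The ATPases Psmc4, Psmc5 and Psmc3 rose too, with spleen ratios of 2.11, 2.06 and 2.04. The remaining ATPase, Psmc2 (Rpt1), had 144 CPM in T-ALL spleen and 77.97 CPM in normal spleen, a ratio of 1.85 that stayed under the 2-fold rule. Psmd2, the scaffold Rpn1 that docks ubiquitin shuttle factors, did not reach 2-fold. It had 359.8 CPM in T-ALL spleen, 202 CPM in normal spleen, 234 CPM in T-ALL marrow and 297 CPM in normal marrow, with a spleen ratio of 1.78. The ubiquitin receptor Psmd4 (Rpn10) differed least in the base, with a ratio of 1.41 (1.29 to 1.53). Summed over the 6 ATPases, T-ALL spleen held 1046 CPM and normal spleen 486 CPM, a ratio of 2.15 (2.08 to 2.23).

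In the lid, 2 of 8 genes rose at least 2-fold and the median log2 fold was 0.89. Psmd3 (Rpn3) had 296.5 CPM in T-ALL spleen, 129 CPM in normal spleen, 159 CPM in T-ALL marrow and 164 CPM in normal marrow. The other 3 libraries lay between 129 and 164 CPM and T-ALL spleen stood above them, at 2.29 times normal spleen (2.14 to 2.46). Psmd12 (Rpn5) had 114 CPM in T-ALL spleen and 50.1 CPM in normal spleen, a ratio of 2.27 (2.03 to 2.55). The deubiquitinase Psmd14 (Rpn11) had 128 CPM in T-ALL spleen and 68.3 CPM in normal spleen, a ratio of 1.88, and its partner Psmd7 (Rpn8) had 114 CPM in T-ALL spleen and 61.2 CPM in normal spleen, a ratio of 1.86. The smallest ratio in the lid was that of Psmd11, the subunit that clamps the lid to the core, at 1.36 (1.22 to 1.52). Summed, the 17 genes of base and lid stood at 2925 CPM in T-ALL spleen and 1503 CPM in normal spleen, a ratio of 1.95 (1.91 to 1.99).

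None of the 15 core genes above 10 CPM reached 2-fold, and 10 of them passed 1.5-fold. The 7 alpha ring genes had spleen log2 folds of 0.54 (Psma1) to 0.95 (Psma6), with a median of 0.70. Psma6 came nearest to the 2-fold rule, with 175 CPM in T-ALL spleen, 90.0 CPM in normal spleen, 127 CPM in T-ALL marrow and 147 CPM in normal marrow. Psma7, the subunit for which Psma8 substitutes in testis, had 174 CPM in T-ALL spleen and 92.96 CPM in normal spleen, a ratio of 1.87. Psma4, whose tail helps close the gate, had 146.5 CPM in T-ALL spleen and 89.9 CPM in normal spleen, a ratio of 1.63.

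Among the standard catalytic subunits, Psmb7 (trypsin-like) had 148 CPM in T-ALL spleen, 78.4 CPM in normal spleen, 96.2 CPM in T-ALL marrow and 108 CPM in normal marrow. Psmb6 (caspase-like) had 110.0 CPM in T-ALL spleen and 65.9 CPM in normal spleen, and Psmb5 (chymotrypsin-like) had 96.03 CPM in T-ALL spleen and 60.3 CPM in normal spleen. The spleen ratios of these catalytic genes were 1.89, 1.67 and 1.59, so none passed the rule. The structural subunits Psmb1, Psmb2, Psmb3 and Psmb4 had ratios of 1.30, 1.48, 1.66 and 1.67. Psmb10, the immunoproteasome counterpart of Psmb7, went the other way: 113 CPM in T-ALL spleen, 124 CPM in normal spleen, 93.1 CPM in T-ALL marrow and 77.2 CPM in normal marrow, a spleen ratio of 0.910 (0.835 to 0.991).

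The activators split. Psme3 (PA28 gamma), a nuclear activator that acts on proteins without ubiquitin, rose in T-ALL spleen. It had 298 CPM there, 145 CPM in normal spleen, 178 CPM in T-ALL marrow and 239 CPM in normal marrow, with a spleen ratio of 2.06 (1.93 to 2.20). Psme1 (PA28 alpha) had 233 CPM in T-ALL spleen, 278 CPM in normal spleen, 196 CPM in T-ALL marrow and 193 CPM in normal marrow. Its partner Psme2 (PA28 beta) had 175 CPM in T-ALL spleen, 194 CPM in normal spleen, 132 CPM in T-ALL marrow and 111 CPM in normal marrow. The spleen ratios of these PA28 genes were 0.838 (0.791 to 0.889) and 0.900 (0.841 to 0.964); together with Psmb10 they were the 3 genes whose interval lay below 1, none of them near 2-fold. Psme4 (PA200), a nuclear activator known for its role in sperm development, had 125 CPM in T-ALL spleen and 106 CPM in normal spleen, a ratio of 1.18 (1.08 to 1.29). Psmf1 (PI31), which inhibits the core in vitro, had 45.7 CPM in T-ALL spleen and 36.7 CPM in normal spleen, a ratio of 1.25 (1.08 to 1.44).

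**Figure D2:**
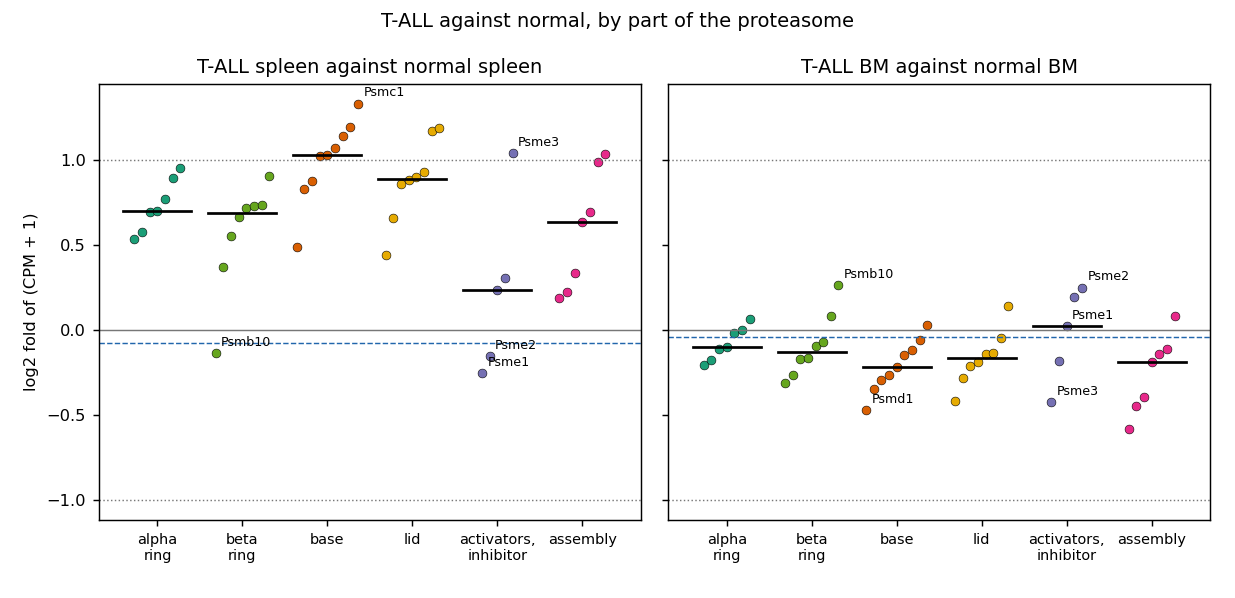
Log2 fold of (CPM + 1), T-ALL against normal, for the proteasome genes that reach 10 CPM, by place in the proteasome, with spleen and bone marrow in separate panels, 1 point per gene, a black line at each class median, dotted lines at 2-fold and a dashed line at the median of all genes. In spleen the base lies highest with a median of 1.03 and the activators spread from -0.25 to 1.04; in bone marrow all points lie between -0.58 and 0.27.

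Of the 7 assembly factors, 1 passed the rule in spleen. The chaperones PAC1 to PAC4 (Psmg1 to Psmg4) build the alpha ring. Psmg1 had 29.9 CPM in T-ALL spleen, 14.1 CPM in normal spleen, 22.2 CPM in T-ALL marrow and 30.6 CPM in normal marrow, a spleen ratio of 2.12 (1.71 to 2.64). Its partner Psmg2 had 34.1 CPM in T-ALL spleen and 16.7 CPM in normal spleen, a ratio of 2.05 (1.68 to 2.50). On log2(CPM + 1) Psmg2 fell just outside the rule, at a log2 fold of 0.99. Psmg3 had a ratio of 1.60 (1.25 to 2.05) and Psmg4 of 1.18 (0.935 to 1.48). The base chaperones Psmd9 (p27), Psmd5 (S5b) and Psmd10 (gankyrin) had ratios of 1.65, 1.27 and 1.14, with the interval of Psmd10 crossing 1.

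Psmc3ip, the recombination factor, had 12.5 CPM in T-ALL spleen, 3.36 CPM in normal spleen, 9.66 CPM in T-ALL marrow and 13.3 CPM in normal marrow. Its spleen ratio of 3.71 (2.46 to 5.75) was the highest under the rule that chose the genes, and without it 10 of 44 genes passed. Psma8 had 5 reads in T-ALL spleen, 10 in normal spleen, 25 in T-ALL bone marrow and 36 in normal bone marrow. Psmb11 had 4 reads in T-ALL spleen, 12 in normal spleen, 13 in T-ALL bone marrow and 3 in normal bone marrow. Both are far below their standard counterparts: the RPKM of Psma8 was 0.00162 of that of Psma7 in T-ALL spleen and 0.0143 in normal bone marrow, where it was highest.

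Other gene groups moved with the same pair of libraries, in which 10.3% of all genes measured were higher and 11.0% lower. All 20 cell cycle genes examined were higher by at least 2-fold in T-ALL spleen, with none at 0, and their summed level was 4845 CPM in T-ALL spleen, 1222 CPM in normal spleen, 4008 CPM in T-ALL marrow and 6389 CPM in normal marrow. Of the 16 T cell markers with a line 13 were higher in T-ALL spleen, and of the 15 macrophage markers 1 was higher and 6 were lower. Of 20 interferon response genes, a list that includes Psmb8 and Psmb9, 9 were lower and 0 higher in T-ALL spleen, with a summed level of 1673 CPM in T-ALL spleen, 2800 CPM in normal spleen, 1604 CPM in T-ALL marrow and 1090 CPM in normal marrow. Of the 11 B cell markers 4 were lower and 0 higher, summing to 1405 CPM in T-ALL spleen and 2834 CPM in normal spleen, with Igll1 at 0 in normal spleen. Of the 8 dendritic cell markers 7 were lower and 0 higher, summing to 329 CPM in T-ALL spleen and 1097 CPM in normal spleen. The part of these groups in the proteasome results was not tested.

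In bone marrow the same question gave a different picture. No proteasome gene was higher or lower by the 2-fold rule in T-ALL bone marrow, where 8.01% of all 9716 genes were higher and 1.03% were lower. None passed 1.5-fold on log2(CPM + 1) either, against 14.1% higher and 7.09% lower over all genes. Psmg2 came nearest, with a log2 fold of -0.58, and without the pseudocount it was 1.52-fold lower. Of the 45 genes, 10 had a log2 fold above 0 and 35 below (9 and 36 on total reads, on median-of-ratios size factors and in RPKM), with a median of -0.15, against -0.04 over all genes. The summed level was 4371 CPM in T-ALL marrow and 4820 CPM in normal marrow, a ratio of 0.907 (0.895 to 0.919). The counting intervals lay below 1 for 22 genes, above 1 for 4 and across 1 for 19.

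The class medians of the log2 fold in bone marrow were -0.22 for the base, -0.16 for the lid, -0.10 for the alpha ring, -0.13 for the beta ring, 0.02 for the activators and inhibitor and -0.18 for the assembly factors. The lowest ratios were those of Psmg2 at 0.659 (0.549 to 0.789), Psmd1 at 0.720 (0.670 to 0.773) and Psmg1 at 0.725 (0.605 to 0.868). Psme3, at 178 CPM in T-ALL marrow and 239 CPM in normal marrow, had a ratio of 0.745 (0.699 to 0.793). The 4 genes with an interval above 1 were Psmb10 at 1.21 (1.09 to 1.33), Psme2 at 1.19 (1.10 to 1.29), Psme4 at 1.15 (1.06 to 1.25) and Psmd8, a lid scaffold, at 1.10 (1.02 to 1.20). Psme1, with 196 CPM in T-ALL marrow and 193 CPM in normal marrow, had a ratio of 1.02 (0.952 to 1.08).

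T cell markers went the same way in the marrow pair as in spleen, with 13 of the 16 higher and 0 lower in T-ALL bone marrow and a summed ratio of 3.33 (3.18 to 3.47), against 3.29 (3.22 to 3.36) in spleen. Over all genes measured in this pair 8.01% were higher and 1.03% lower. Of the 20 cell cycle genes 0 were called and all 20 had a log2 fold below 0 in this pair, with a median of -0.71. Of the interferon response genes 7 of 20 were higher in T-ALL bone marrow and 0 were lower. Of the macrophage markers 14 of 15 were higher, and of the 12 neutrophil precursor genes 9 were lower. Of 8 genes of mature neutrophils 3 were higher and 0 lower, with a summed level of 14089 CPM in T-ALL marrow and 15683 CPM in normal marrow. Their part in the proteasome values was not tested.

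Set side by side, the comparisons of the organs share no library. Of the 45 genes, 35 (77.8%) had a T-ALL to normal ratio below 1 in bone marrow and above 1 in spleen, as had 34.8% of the 9178 genes that reached 10 CPM in both comparisons. For 22 of these 35 both counting intervals excluded 1. Psmb10, Psme1 and Psme2 showed the opposite order, above 1 in bone marrow and below 1 in spleen, with both intervals excluding 1 for Psmb10 and Psme2 but not for Psme1. The remaining 7 were above 1 in both organs, and 0 were below 1 in both. Across the 45 genes the log2 folds of the organs had a Pearson correlation of -0.61 and a Spearman correlation of -0.54, a description over genes of the same 4 libraries and not over independent samples.

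**Figure D3:**
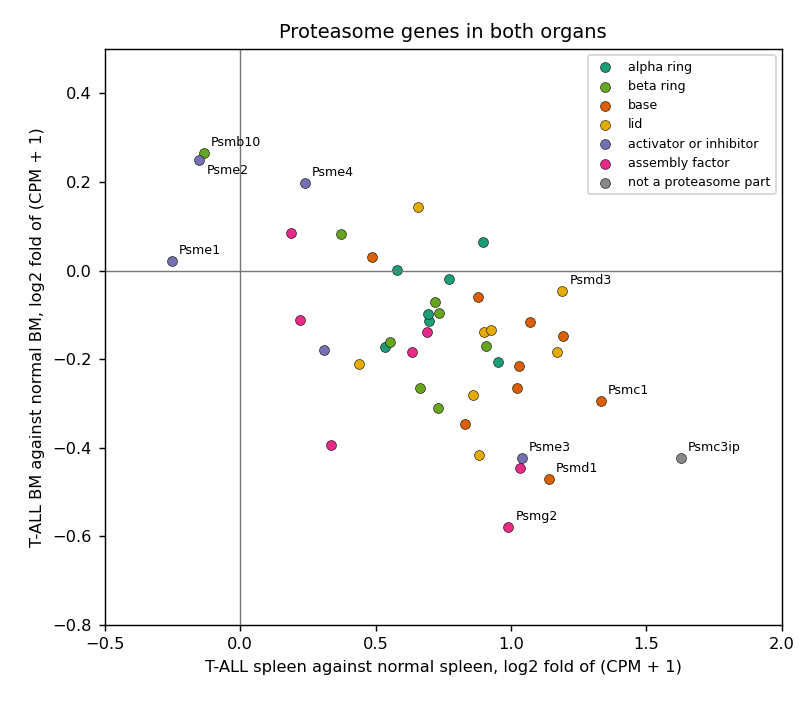
Log2 fold of (CPM + 1) of each proteasome gene in T-ALL against normal spleen (horizontal) and in T-ALL against normal bone marrow (vertical), 1 point per gene, coloured by place in the proteasome. Of the 45 points 35 lie right of 0 and below 0, and 3 (Psmb10, Psme1 and Psme2) lie left of 0 and above it.

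The organs were also compared within each condition; these comparisons reuse the same 4 libraries. In normal mice 0 of the 45 genes were higher and 2 (1 without Psmc3ip) were lower in spleen than in bone marrow. Over all 10072 genes of this pair 16.1% were higher and 14.0% were lower. The 2 were Psmg1, with 14.1 CPM in normal spleen and 30.6 CPM in normal bone marrow, and Psmc3ip, with 3.36 CPM in normal spleen and 13.3 CPM in normal bone marrow. The median log2 fold was -0.49, against -0.04 over all genes, and the summed ratio was 0.787 (0.776 to 0.798). At 1.5-fold 12 genes were lower (24.6% of all genes) and 2 higher (24.5%), the 2 being Psme2 at 1.75 (1.62 to 1.89) and Psmb10 at 1.60 (1.46 to 1.76). Psmd7 came closest to the 2-fold rule from outside, with 61.2 CPM in normal spleen and 122 CPM in normal bone marrow, a log2 fold of -0.99. In this pair the cell cycle genes were lower in normal spleen in 20 of 20 cases and 14 of 20 interferon response genes were higher; their part was not tested.

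In T-ALL mice 1 proteasome gene was higher in spleen than in bone marrow and 0 were lower, where 5.44% of all 9852 genes were higher and 11.0% were lower. The gene was Psmc1, with 241 CPM in T-ALL spleen and 118 CPM in T-ALL bone marrow, a ratio of 2.05 (1.91 to 2.20). At 1.5-fold 12 were higher, against 14.1% of all genes. The median log2 fold was 0.45, against 0.01 over all genes, and the summed ratio was 1.42 (1.40 to 1.43). All but Psme4 had a log2 fold above 0; on median-of-ratios size factors Psme4 was above 0 as well. Psmd3 had the next highest ratio, at 1.86 (1.75 to 1.99). T cell markers were higher in T-ALL spleen than in T-ALL bone marrow for 15 of the 16 genes, and the neutrophil precursor genes were lower for 11 of 12; their part was not tested.

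Ratios between gene groups within a library do not depend on library scaling. Those of reads below were not adjusted for gene length, so each is compared between libraries only. The reads of the 17 genes of base and lid, divided by those of the 14 standard core genes, gave 1.43 in T-ALL spleen (1.40 to 1.45), 1.19 in normal spleen (1.16 to 1.22), 1.24 in T-ALL bone marrow (1.21 to 1.27) and 1.34 in normal bone marrow (1.31 to 1.36). T-ALL spleen had the highest balance towards the regulatory particle and normal spleen the lowest. The reads of the 6 ATPases over those of the core gave 0.510 in T-ALL spleen, 0.386 in normal spleen, 0.421 in T-ALL bone marrow and 0.451 in normal bone marrow, in the same order.

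The balance of the interferon-induced genes had a different order, highest in normal spleen and lowest in normal bone marrow. The reads of Psmb10, Psme1 and Psme2 over those of the 31 standard 26S genes gave 0.105 in T-ALL spleen (0.102 to 0.108), 0.216 in normal spleen (0.209 to 0.222), 0.123 in T-ALL bone marrow (0.119 to 0.127) and 0.0998 in normal bone marrow (0.0965 to 0.103). Normal spleen stood apart from the other 3 libraries. The 3 genes of the numerator are those that peaked in normal spleen, which held the lowest level of 39 of the 45 genes. This ratio therefore restates those levels and is no separate result. Per length, in RPKM, Psmb10 over Psmb7, which compete for the same place in the ring, gave 0.581 in T-ALL spleen (0.535 to 0.630), 1.20 in normal spleen (1.09 to 1.33), 0.738 in T-ALL bone marrow (0.672 to 0.811) and 0.544 in normal bone marrow (0.495 to 0.597). Normal spleen was thus the library in which Psmb10 exceeded Psmb7. The reads of Psme3 over Psme1 and Psme2 gave 0.731 in T-ALL spleen, 0.306 in normal spleen, 0.541 in T-ALL bone marrow and 0.784 in normal bone marrow.

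The other inducible catalytic genes, outside the rule, gave an RPKM ratio of Psmb8 over Psmb5 of 2.13 in T-ALL spleen, 3.22 in normal spleen, 2.03 in T-ALL bone marrow and 1.51 in normal bone marrow. Psmb8 itself was not lower in T-ALL spleen, with 237 RPKM in T-ALL spleen and 222 RPKM in normal spleen, while Psmb5 had 111 RPKM in T-ALL spleen and 68.9 RPKM in normal spleen. For Psmb9 over Psmb6 the ratio was 1.16 in T-ALL spleen, 2.90 in normal spleen, 1.39 in T-ALL bone marrow and 1.16 in normal bone marrow. Psmb9 itself had 124 RPKM in T-ALL spleen and 183 RPKM in normal spleen, and Psmb6 had 107 RPKM in T-ALL spleen and 63.3 RPKM in normal spleen.

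**Figure D4:**
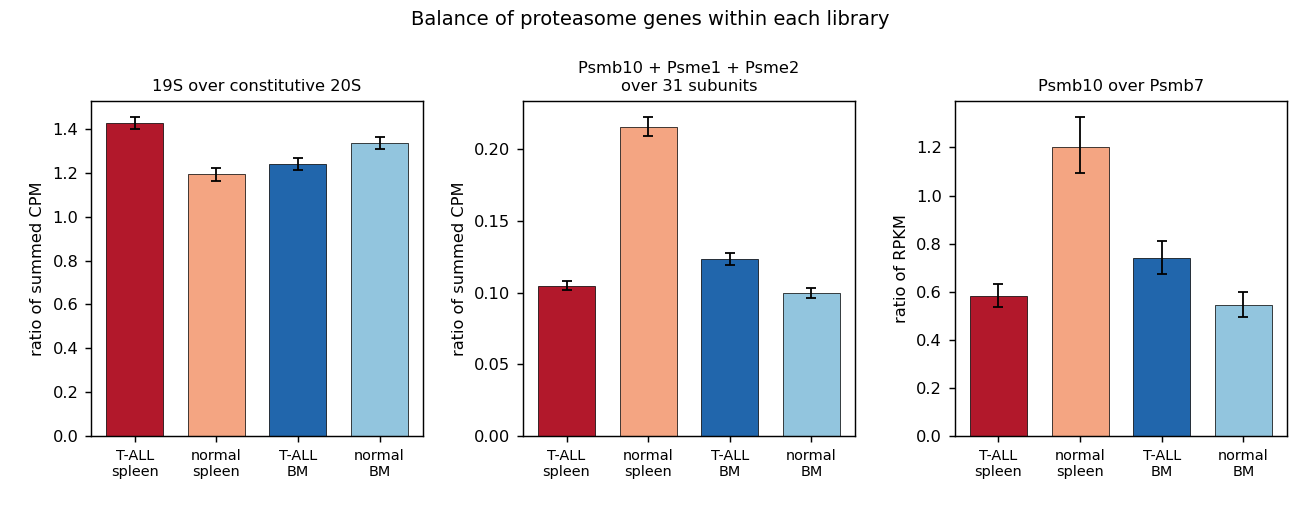
Bars give, within each library, the summed CPM of base and lid (19S) over that of the 14 standard core genes (constitutive 20S), the summed CPM of Psmb10, Psme1 and Psme2 over that of the 31 standard 26S genes, and the RPKM of Psmb10 over that of Psmb7; error bars are exact 95% intervals of counting. The first ratio is highest in T-ALL spleen at 1.43, and the other ratios are highest in normal spleen at 0.216 and 1.20.

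Apart from the ratios of summed reads above, levels of different genes were compared per length, in the deposited RPKM. The 14 standard core genes, whose proteins sit in equal numbers in the barrel, spanned 2.23-fold in T-ALL spleen, 2.17-fold in normal spleen, 2.26-fold in T-ALL bone marrow and 2.17-fold in normal bone marrow. Psma5 was the lowest of them in every library, with 94.5 RPKM in T-ALL spleen, 57.4 RPKM in normal spleen, 69.1 RPKM in T-ALL bone marrow and 75.1 RPKM in normal bone marrow. Psmb4 was the highest except in T-ALL bone marrow, where Psma7 was, with 156 RPKM. Psmb4 had 210.4 RPKM in T-ALL spleen, 125 RPKM in normal spleen, 151 RPKM in T-ALL bone marrow and 163 RPKM in normal bone marrow.

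The medians of base and lid lay below that of the core per length. The median of the 9 base genes was 113 RPKM in T-ALL spleen, 56.3 RPKM in normal spleen, 74.1 RPKM in T-ALL bone marrow and 80.9 RPKM in normal bone marrow, and that of the core was 144 RPKM in T-ALL spleen, 85.4 RPKM in normal spleen, 103 RPKM in T-ALL bone marrow and 115 RPKM in normal bone marrow. The lid median was 79.3 RPKM in T-ALL spleen, 41.3 RPKM in normal spleen, 56.4 RPKM in T-ALL bone marrow and 69.3 RPKM in normal bone marrow. In each library the order of the medians was core, base, lid. The chaperones Psmg1 to Psmg4 were lower again, with medians of 31.05 RPKM in T-ALL spleen, 15.1 RPKM in normal spleen, 20.7 RPKM in T-ALL bone marrow and 26.97 RPKM in normal bone marrow. Psme1 was the highest of all 47 genes in every library, with 240.2 RPKM in T-ALL spleen, 283 RPKM in normal spleen, 199 RPKM in T-ALL bone marrow and 199 RPKM in normal bone marrow. The order of the 31 standard 26S genes by RPKM was much alike in all libraries, with Spearman correlations of 0.888 between T-ALL and normal spleen and 0.966 between T-ALL and normal bone marrow, across genes that share their lengths and annotation.

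Other genes of the pathway were examined as 3 lists. Of 11 partners of the proteasome with a line that the symbol rule does not reach, such as the assembly factor Pomp and the ubiquitin receptor Adrm1, 2 were higher in T-ALL spleen and 0 were lower, where 10.3% of all genes measured were higher and 11.0% lower. In T-ALL bone marrow 0 of the 11 were called, where 8.01% of all genes were higher and 1.03% lower. The 2 were Uchl5, a deubiquitinase of the 19S particle, and Zfand2a, a stress-induced proteasome-binding protein. Uchl5 had 73.3 CPM in T-ALL spleen, 27.9 CPM in normal spleen, 59.2 CPM in T-ALL marrow and 93.1 CPM in normal marrow, a spleen ratio of 2.63 (2.27 to 3.06). Zfand2a had 68.5 CPM in T-ALL spleen, 26.4 CPM in normal spleen, 34.1 CPM in T-ALL marrow and 27.6 CPM in normal marrow, a spleen ratio of 2.60 (2.23 to 3.03).

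Of 12 genes around NRF1, its processing and its targets, 10 were measured in spleen, and 1 was higher and 1 lower in T-ALL spleen, a share near the 10.3% and 11.0% of all genes. In T-ALL bone marrow 9 were measured, and 2 were higher and 0 lower, where 8.01% of all genes were higher and 1.03% lower. Maff, a small MAF partner of NRF1, had 27.6 CPM in T-ALL spleen and 9.28 CPM in normal spleen. Hmox1, the haem oxygenase that iron-recycling macrophages use, had 693 CPM in T-ALL spleen, 1831 CPM in normal spleen, 510.2 CPM in T-ALL marrow and 55.5 CPM in normal marrow. It was the gene lower in T-ALL spleen and was higher in T-ALL bone marrow together with the repressor Bach1. Nfe2l1 itself, named after its values were seen, had 158 CPM in T-ALL spleen, 217 CPM in normal spleen, 154 CPM in T-ALL marrow and 137 CPM in normal marrow, with log2 folds of -0.46 in spleen and 0.17 in bone marrow. Of 18 ubiquitin genes and shuttle factors 0 were called in either organ, with median log2 folds of 0.29 in spleen and -0.20 in bone marrow.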

How the data were processed

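The deposited files give, per the file headers, for each gene the authors' count of uniquely mapped reads, its length, its coverage in percent and its RPKM. Recomputing the deposited RPKM from reads, length and total gave the same values within 9.2e-06%, and the deposited coverage percent was not used in a comparison. The sources used here do not give the aligner, counting rule, strand setting or genome build. Genes without a line were set to 0, and 23 symbols that a spreadsheet had turned into dates were restored through the Gene ID. All 47 genes matched a RefSeq table by Gene ID and symbol, and 0 columns belonged to other samples.

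CPM used totals adjusted by TMM factors from edgeR 4.0.16 in R 4.3.3 ( 1.01, 0.996, 0.991 and 1.00 for T-ALL spleen, normal spleen, T-ALL bone marrow and normal bone marrow); no count model was fitted. Median-of-ratios size factors came from DESeq2 1.42.0. Figures were drawn with matplotlib 3.10.9, and tables and intervals were made with scipy 1.17.1, pandas 2.3.3 and numpy 2.4.6 under Python 3.11.15. Log2 folds are of CPM plus a pseudocount of 1, which understates the change of low genes; ratios are of CPM without it, with 95% intervals that are exact for a binomial split of both counts. Reads copied by PCR are not independent, so these intervals may be too narrow even for counting error. Every gene of the set could be named. Outside it, genes of the pathway lists were named when they passed the size rule, with some exceptions. Pomp and Adrm1 were named as examples of a list, Nfe2l1 after its values were seen, and Psmb8 and Psmb9 as inducible catalytic genes. The genes and lists were chosen with earlier results of these data known.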

Additional observations from a re-analysis of the deposited data

Results flagged for a closer look

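For the genes below the T-ALL to normal ratio lay above 1 in spleen and below 1 in bone marrow, both counting intervals excluded 1, and the spleen ratio was at least 2 times the marrow ratio; with 1 library per group this difference was not tested. The spleen ratio over the bone marrow ratio was 3.11 for Psmc1, 3.08 for Psmd1, 2.55 for Psmc6, 2.45 for Psmc3, 2.39 for Psmc5 and 2.27 for Psmd2 in the base, and 2.36 for the summed base. In the lid it was 2.59 for Psmd12, 2.49 for Psmd7, 2.22 for Psmd13 and 2.07 for Psmd14, and 2.07 for the summed lid. In the core it was 2.25 for Psma6, 2.13 for Psmb7 and 2.08 for Psmb6. Among regulators it was 2.77 for Psme3, 3.11 for Psmg2 and 2.92 for Psmg1, and the recombination factor Psmc3ip had 5.11.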

How the results depend on the processing

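Of 136 recomputed counts, medians and summed ratios 122 stayed within the limits set for them, 14 moved and 0 changed direction. A count stayed within its limits if it equalled the main count or, with both above 0, lay within 1.5-fold of it. A count of 0 that stayed at 0 thus passed, and the limits for small counts are wide. A median had to stay within the counting interval of its middle gene, and a summed ratio within its own counting interval. A change of direction could be recorded for medians and summed ratios only, not for counts. The count of genes higher in T-ALL spleen ran from 8 to 12 under every setting except a 1.5-fold threshold, which gave 31. The summed T-ALL to normal ratio in spleen was 1.69 on median-of-ratios size factors and 1.59 in RPKM; in bone marrow it was 0.895 on total reads. Between normal spleen and normal bone marrow the count of lower genes was 1 with a pseudocount of 5 CPM, 0 with a minimum of 50 CPM, 12 at 1.5-fold and 1 without Psma8, Psmb11, Psme2b and Psmc3ip; the count of higher genes was 2 at 1.5-fold, and the summed ratio was 0.812 in RPKM. Between T-ALL spleen and T-ALL bone marrow the summed ratio was 1.44 on total reads and 1.47 on median-of-ratios size factors, the count of higher genes was 12 at 1.5-fold, and 1 gene (Psma8) was lower without a minimum. A lower threshold or a changed minimum alters these counts by construction; the cause of the other shifts was not tested. Medians by class, an alternative chosen after seeing the data, stayed within their limits in 190 of 192 cases. The other 2 were both medians of the activators and inhibitor at a minimum of 50 CPM: 0.04 for T-ALL against normal spleen (0.24 at 10 CPM) and 0.22 for normal spleen against normal bone marrow, where the sign turned (-0.09 at 10 CPM). No paired analysis was possible because each group holds 1 library, and for the same reason no replicate could be left out. Intervals cover counting only, so the spread between mice is unknown. Psma8 and Psmb11, with at most 36 reads, had wide intervals, and for both genes the interval of the T-ALL to normal ratio in spleen includes 1. In bone marrow that of Psma8 includes 1 and that of Psmb11 does not, at 4.58 (1.26 to 25.1) from 13 and 3 reads. Between normal spleen and normal bone marrow both intervals exclude 1, at 0.306 (0.136 to 0.630) for Psma8 and 4.41 (1.19 to 24.4) for Psmb11. Between T-ALL spleen and T-ALL bone marrow that of Psma8 excludes 1, at 0.202 (0.0603 to 0.537).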
